A study of Camellia sinensis with 9 samples.

Results

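A group of 93 unigenes rose at the first step of spring leaf development in the albino tea cultivar ‘Anji Baicha’, between the yellow-green (YG) and white (W) stages, and then stayed near the new level when the leaves turned green again at the re-greening (G) stage. A unigene is a transcript sequence assembled from the reads without a reference genome, and its level was given as FPKM, the number of fragments mapped to it, corrected for its length and for the fragments mapped in all. The group was picked from 179951 unigenes by the values themselves. Its members had an FPKM above 0 at all stages and of at least 10 at one or more of them, were higher in W than in YG by at least 1.5 on the scale of log2(FPKM + 1), and differed by less than 0.5 on that scale between W and G. The W value minus the YG value on that scale is called the first step below, and the G value minus the W value the second step. A further unigene that met these limits, unigene2151 for uroporphyrinogen III synthase (HEMD), was set apart because the study's pathway tables already named it. Because all 3 stages entered the choice, the shape of the profiles is a description and was not tested.

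All samples were leaves of 4-year-old ‘Anji Baicha’ plants, a cultivar whose spring shoots are pale in the cold and green in the warmth. The YG leaves were the first on the shoot, the W leaves were the second or the third, taken 14 days later, and the G leaves were the fifth or the sixth, taken 38 days after the first collection, so that stage cannot be told apart from leaf position, date or temperature. Each stage had 3 libraries, 9 in all, from separate plants, but only 1 FPKM value per unigene and stage was given. No replicate error, p-value or interval between stages could therefore be computed, and every comparison here is between single pooled values. The study gives the reads of each library, but the number of fragments behind each value is unknown. Transcripts of chlorophyll synthesis, which mark leaf tissue, were detected at each stage and did not move one way. The Mg-chelatase H subunit unigene24228 (CHLH) had FPKM values of 49.2 (YG), 88.4 (W) and 209 (G), while the protochlorophyllide reductase unigene7972 (PORA) had 36.2, 19.2 and 1.87. These were picked as opposing examples. Others changed far less, such as a further PORA unigene, unigene8789, with 21.9, 26.1 and 21.7. The remaining PORA unigenes that passed the FPKM limits fell like unigene7972. From YG to G, unigene62053 went from 29.0 to 0.822, unigene1225 from 16.5 to 2.38 and unigene57504 from 13.6 to 2.47.

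In pale shoots of this cultivar chloroplast development is arrested and chlorophyll is low, and both recover as the leaves green. Chlorophyll and heme share a tetrapyrrole pathway that starts from glutamate, in which uroporphyrinogen III synthase closes the ring present in both. Chlorophyll b is turned over through chlorophyll b reductase (NYC1), and the phytol tail is removed by pheophytinase (PPH) when chlorophyll is broken down. In bulk leaf RNA, more cells of a type and more RNA per cell cannot be told apart.

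The files do not pair the 93 unigenes with gene names. None of them was among the 155 unigenes that the study listed for carotenoid, chlorophyll or theanine metabolism, and no unigene identifier matched the tea reference gene table. Their functions are thus not given here, and the only named profile of this shape is that of HEMD. The study's primers for HEMD are shown because they tie this profile to a transcript sequence, and those for 3 chlorophyll breakdown unigenes because these rose less at the first step and differed by less than 0.5 at the second. They are examples, since other pathway unigenes had such profiles too. They are given from 5′ to 3′, with no part singled out by capitals.
HEMD unigene2151 sense: ctcattcctcatctgtcttctctctc
HEMD unigene2151 anti-sense: tttctctctctacccatctctctctc
NYC1 unigene37738 sense: gtgtctgtggtcatcatctcgtct
NYC1 unigene37738 anti-sense: ccattccttctttcaggttctctt
NYC1 unigene26042 sense: gggaagagcattatatgcagcaga
NYC1 unigene26042 anti-sense: aggcacaaacgacagaaagtgaga
PPH unigene5416 sense: gactctcccattgttgtgcttgcta
PPH unigene5416 anti-sense: tctctcctatcttctcctgtcctgt
Both HEMD primers were rich in pyrimidines, with 23 C or T bases among the 26 of the sense primer and 24 among the 26 of the anti-sense primer.

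The FPKM of HEMD unigene2151 was 4.88 (YG), 16.8 (W) and 21.0 (G), so that most of its rise lay before the white stage. Its first step was 1.60 and its second step 0.31 on the scale of log2(FPKM + 1). The other unigenes listed for HEMD did not follow it. Unigene133468 had FPKM values of 1.79 (YG), 2.33 (W) and 2.09 (G). The values of unigene8003 were 2.56, 2.61 and 3.17 at the same stages, and those of unigene25859 were 2.64, 2.26 and 2.56. Unigene2151 thus had the highest level of the HEMD unigenes at every stage, YG included, although how reads shared between similar unigenes were divided is not described.

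Across the 93 unigenes the median FPKM was 2.79 at YG, 17.2 at W and 17.9 at G. The YG values ran from 0.196 to 57.0, the W values from 8.13 to 575 and the G values from 7.51 to 425. In YG, 8 of the unigenes were under an FPKM of 1, 69 were under 5 and 10 reached 10. In W, 79 reached 10 and 10 reached 50, and in G the numbers were 89 and 12. Most of the group was thus weakly expressed in YG and moderately expressed in W and G. Both W and G were at or above 10 for 75 unigenes, G alone for 14 and W alone for 4.

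**Figure D1:**
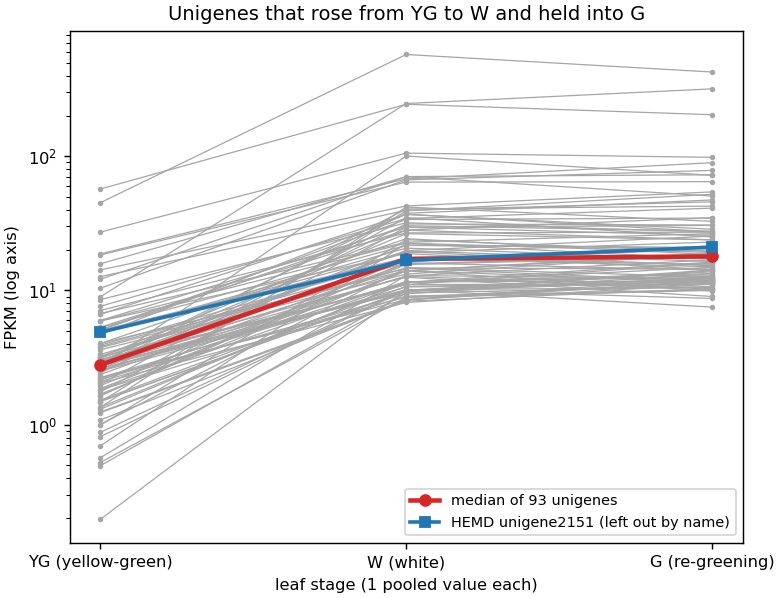
FPKM (log axis) of each of the 93 unigenes at the YG, W and G stages, 1 pooled value per stage, in grey, with their median in red and the HEMD unigene2151 in blue. The median goes from 2.79 to 17.2 and 17.9, and HEMD from 4.88 to 16.8 and 21.0.

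The ratio of W to YG had a median of 5.92 and ran from 2.995 to 51.7, and the ratio of G to YG had a median of 6.02 and ran from 2.42 to 53.6. On the scale of log2(FPKM + 1) the median first step was 2.14, with quartiles of 1.79 and 2.61, and the median change from YG to G was 2.24. The medians over all 6913 unigenes that passed the FPKM limits were 0.07 for the first step and 0.14 from YG to G. Of those 6913 unigenes, 433 (6.26%) rose by at least 1.5 at the first step and 94 (1.36%, HEMD included) also met the limit on the second step. From YG to G, 88 of the 93 were higher by at least 1.5, against 18.2% of the 6913. These shares follow from the choice of members and are given only to show its size.

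The 3 most abundant unigenes set the scale of the group. The FPKM of unigene68301 was 45.1 (YG), 575 (W) and 425 (G), which topped the group in both later stages. Unigene12161 had FPKM values of 8.93 (YG), 248 (W) and 319 (G) and the largest change from YG to G of all members, 5.01 on the log2 scale. Unigene79541 was the most abundant in YG, with an FPKM of 57.0, and reached 244 in W and 204 in G. Ranked among the 6913 unigenes that passed the FPKM limits, unigene12161 moved from percentile 29.96 in YG to 99.2 in both W and G, while unigene68301 was already at percentile 90.6 in YG.

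Summed over the group, the FPKM went from 480.2 (YG) to 3177 (W) and 3089 (G), which were 0.126%, 0.909% and 0.834% of all FPKM at those stages. The 3 unigenes above held 23.1% of the group's sum in YG, 33.6% in W and 30.7% in G. Without them the group still held 0.0966%, 0.604% and 0.578% of all FPKM. That the share rises in any subset follows from the choice of members.

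Of the next 7 unigenes by mean FPKM, all were above 10 in YG except unigene11368. Unigene12076 had FPKM values of 27.2 (YG), 106 (W) and 98.3 (G). For unigene27432 the values were 18.7, 68.0 and 89.7, and for unigene92028 they were 10.4, 66.8 and 78.6. The latter pair went on rising slightly in G. Unigene167845 was nearly equal in W and G, with 12.1, 70.6 and 72.9, and so was unigene59403, with 18.4, 64.2 and 64.7. Unigene57547 lay lower in G than in W, with 15.8, 70.4 and 50.6. Of the 10 most abundant unigenes, 5 had their highest FPKM in W and 5 in G.

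**Figure D2:**
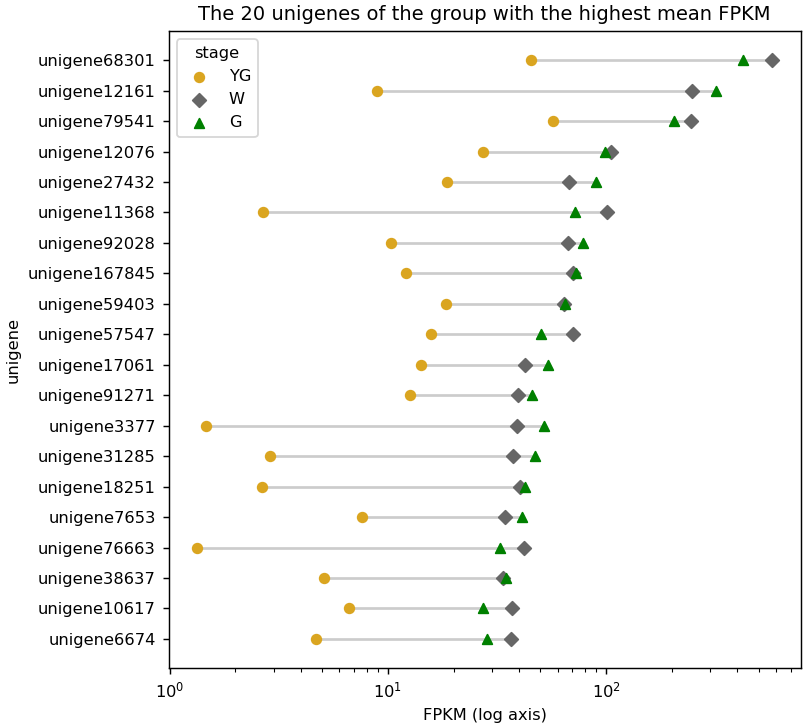
FPKM (log axis) of the 20 unigenes of the group with the highest mean FPKM, with circles for YG, diamonds for W and triangles for G, 1 pooled value each. The W and G symbols lie close together and far to the right of YG, from unigene68301 at 575 in W to unigene6674 at 36.9.

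The size of the first step varied widely. It was under 2 in 39 of the unigenes, from 2 to 3 in 40 and at least 3 in 14. The median FPKM in YG was 3.33, 2.47 and 1.87 in these classes in turn, and the median in W was 14.01, 17.3 and 36.3. The median in G was 14.2, 18.1 and 31.8. A lower start and a higher W level with larger steps follow from the split itself, so these medians only describe the classes.

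The largest first step was that of unigene11368, 4.78, with FPKM values of 2.69 (YG), 101 (W) and 72.1 (G). It was followed by unigene12161 with 4.65. Unigene76663 rose by 4.20, with 1.34, 41.9 and 32.8. In unigene3377 the step was 4.03, with 1.47, 39.3 and 52.1. The step of unigene47663 was 3.79, with 0.692, 22.5 and 17.2. Of these 5 unigenes, 3 started from an FPKM under 1.5 and all but unigene12161 started below 3.

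The ratio of W to YG, which uses no pseudocount, reached 10 in 20 unigenes and that of G to YG in 22, with 17 in common. The largest ratios were those of unigene37756, 51.7 for W and 53.6 for G, and they rested on an FPKM of 0.196 in YG beside 10.1 in W and 10.5 in G. Its first step on the scale of log2(FPKM + 1) was 3.22, smaller than that of 12 other members, because the added 1 outweighs so low a value. Of the 8 unigenes under an FPKM of 1 in YG, 6 stayed under 14 in both later stages. The exceptions were unigene146986, with 0.988, 23.9 and 19.5, and unigene47663. For these 8 the exact fold is the least certain, because the fragments behind values this low are unknown.

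At the second step the members had a median of 0.06, with quartiles of -0.22 and 0.30, and a median ratio of G to W of 1.05. It was above 0 in 55 unigenes and below 0 in 38, and within 0.25 of 0 in 44. The sign of this small median depended on the scaling, since it was -0.01 under upper-quartile scaling, -0.02 when the stages were scaled to the same sum and -0.11 under quantile normalization, with 45, 45 and 37 unigenes above 0. Whether the group as a whole crept up or down between W and G could therefore not be told. Under the same scalings all 93 still met the limit on the first step.

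The most level profiles belonged to unigene59403, with a second step of 0.01, and to unigene11625, unigene130494, unigene14759 and unigene61527. Unigene11625 had FPKM values of 2.55 (YG), 11.6 (W) and 11.7 (G). The values of unigene130494 were 7.08, 26.9 and 27.2. For unigene14759 they were 3.06, 11.1 and 11.2. Only unigene61527 of these 5 was slightly lower in G, with 2.42, 31.3 and 30.8, and its first step of 3.24 was also the largest of the 5.

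The members nearest to the upper limit went on rising by close to 0.5. Unigene4734 had FPKM values of 2.99 (YG), 11.1 (W) and 16.01 (G). The values of unigene128870 were 1.24, 8.51 and 12.4, those of unigene95194 were 2.62, 9.87 and 14.2, and those of unigene17005 were 2.73, 9.76 and 14.02. Unigene5163 was higher throughout, with 3.61, 13.2 and 18.8. All 5 had a ratio of G to W between 1.42 and 1.45.

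At the other limit were members that fell back in part. In order of the second step, unigene11368 and unigene57547 came first, with ratios of G to W of 0.717 and 0.718. Next was unigene2890, with FPKM values of 4.03 (YG), 14.01 (W) and 9.89 (G). Its ratio of G to W, 0.706, was the lowest of all members. Unigene26358 had 2.00, 34.9 and 25.1. The values of unigene82386 were 3.16, 12.6 and 9.01. Each of these 5 still stood at least 2-fold above its YG level in G.

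The limits cut through a continuous spread. Just outside the limit on the first step lay unigene62132, at 1.48 with FPKM values of 5.81 (YG), 17.97 (W) and 15.5 (G), and unigene26580, at 1.47 with 4.14, 13.3 and 10.04. Just inside were unigene17061, at 1.52 with 14.2, 42.7 and 54.3, and unigene40588, at 1.52 with 5.91, 18.9 and 14.3. At the upper limit of the second step unigene5443 (0.51) and unigene123411 (0.52) fell outside, beside unigene4734 (0.497) and unigene128870 (0.49) inside. At the lower limit unigene38640 (-0.51) and unigene11243 (-0.53) fell outside, beside unigene11368 (-0.47) and unigene57547 (-0.47) inside. At the FPKM limit unigene1487 and unigene522 were left out with highest values of 9.96 and 9.77, while unigene74939 and unigene18245 were kept with 10.004 and 10.1.

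Among the 433 unigenes that rose by at least 1.5 at the first step, holding was the least common course at these limits. After the rise 224 (51.7%) went on rising by at least 0.5 from W to G, 115 (26.6%) fell by at least 0.5 and 94 (21.7%) held. These shares depend on the FPKM minimum, which a unigene that rose on could pass through G alone. Without a minimum, 27.8% of the early risers held. Of all 6913 unigenes, 52.7% differed by less than 0.5 between W and G, and of the 6159 with a first step smaller than 1.5 in size, 55.9% did. In the mirror pattern, 321 unigenes (4.64% of the 6913) fell by at least 1.5 at the first step, of which 105 (32.7%) held, 187 (58.3%) fell on and 29 (9.03%) rose back. Unigenes are not independent samples, so the difference between these shares was not tested.

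**Figure D3:**
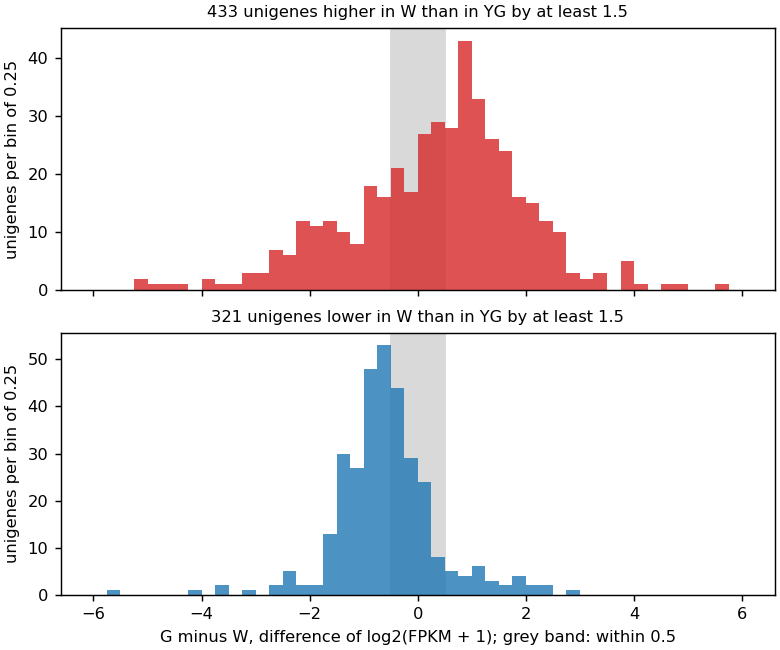
Number of unigenes by second step (G minus W, difference of log2(FPKM + 1), bins of 0.25), above for the 433 that rose and below for the 321 that fell by at least 1.5 at the first step; the grey band marks differences under 0.5. The upper bars spread to both sides of the band, which holds 94 of 433, while the lower bars lie mostly below 0 and the band holds 105 of 321.

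The groups that rose and then parted are described by their medians. The median FPKM in YG was 2.83 for the 94 that held, 1.49 for the 224 that rose on and 3.22 for the 115 that fell back. In W the medians were 17.2, 10.5 and 18.8, and in G they were 18.1, 31.6 and 6.67. These differences are set by the rule at every stage, because a unigene that rose on could pass the FPKM minimum through G alone, while the others had to be near or above it in W.

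Of the unigenes that the study listed for the 3 pathways, 54 passed the FPKM limits. A first step of at least 1.5 was found for 4 of them, beside 6.26% of all 6913, and none fell by as much, beside 4.64%. Their median first step was 0.44 and their median second step 0.32, beside 0.07 and 0.08 over the 6913, and 19 of the 54 differed by less than 0.5 between W and G, beside 52.7%. The full lists hold unigenes annotated to the pathways, changed or not. Most of the 54 that passed, however, were in the study's pathway tables, which hold unigenes called changed on these same libraries. The differences from the 6913 thus follow in part from that choice and were not tested. Of the 4 that rose, only HEMD held. The zeaxanthin epoxidase unigene36818 (ZEP1), which makes violaxanthin from zeaxanthin, had a first step of 1.72 and a second of 0.89. The theanine or glutamine synthetase unigene58305 had steps of 1.69 and 1.19, and the chlorophyllase unigene131928 (CLH) had steps of 2.41 and 3.39. The FPKM of this CLH unigene was only 0.0277 in YG and 4.44 in W. It passed the FPKM minimum through G alone, at 56.0, so its first step is uncertain.

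By pathway, 2 of the 25 chlorophyll unigenes, 1 of the 13 carotenoid unigenes and 1 of the 16 theanine unigenes rose by at least 1.5 at the first step. The second steps differed among the lists, with medians of -0.25, 0.42 and 0.81 in the same order. Only 1 of the 16 theanine unigenes differed by less than 0.5 between W and G, against 11 of 25 for chlorophyll and 7 of 13 for carotenoids. In each list most of these unigenes had been called changed by the study on the same libraries. These shares therefore partly follow from that choice, and no difference between the pathways was tested.

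Likeness was measured as the distance of each named unigene from the median of the members (first step 2.14, second step 0.06), over the 3 stages. After HEMD at 0.599, the nearest were ZEP1 unigene36818 at 0.935, the theanine synthase (TS) unigene89631 at 1.04, and NYC1 unigene37738 at 1.13 and unigene26042 at 1.19. Next came the ispF unigene28019, of the pathway to carotenoid precursors, at 1.21, unigene58305 at 1.21 and the glutamate synthase (GOGAT) unigene201 at 1.24. Unigene163522 (GOGAT) and unigene157030 (glutamine synthetase) closed the list of 10, both listed at 0 in YG and under an FPKM of 1.5 elsewhere, so that their profiles are uncertain.

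The NYC1 unigenes had their highest FPKM in W, with first steps of 1.08 and 0.999 and second steps of -0.30 and -0.25. PPH unigene5416 had a second step of 0.10 after a first step of 0.77. The geranylgeranyl diphosphate synthase unigene10069 (GGPS), which makes the precursor of carotenoids and of the phytol tail, was like PPH, with steps of 0.68 and 0.08. TS unigene89631 had FPKM values of 4.93 (YG), 14.8 (W) and 26.7 (G), close to HEMD in YG and W and higher in G.

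**Figure D4:**
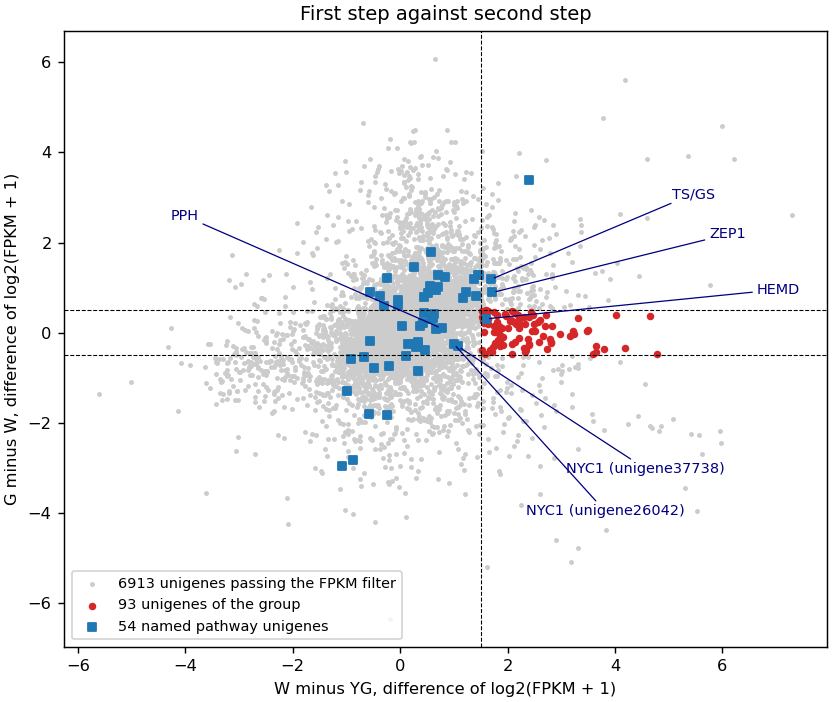
Second step (G minus W) against first step (W minus YG), both differences of log2(FPKM + 1), for the 6913 unigenes that passed the FPKM limits (grey), the 93 of the group (red) and the 54 named pathway unigenes (blue), with dashed lines at the limits of 1.5, 0.5 and -0.5. HEMD, at 1.60 and 0.31, is the only blue square among the red points.

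The numbering of the unigenes, which the rule did not use, spread the members over most of the assembly. Their numbers ran from 1338 to 172818, with none between 100001 and 120000, where few unigenes passed the FPKM limits (93 and 69 in its blocks of 10000). The block from 10001 to 20000 held the most, 18 of the 93 members (19.4%) beside 14.3% of the 6913. Numbers above 130000 belonged to 12 members (12.9%), beside 7.68% of the 6913 and 27.8% of all unigenes. Some members had close numbers. Unigene18245 and unigene18251 were 6 apart, with FPKM values of 1.81, 9.08 and 10.1 and of 2.65, 40.5 and 42.6 at YG, W and G, and unigene87941 and unigene87956 were 15 apart, with 5.32, 28.2 and 34.9 and 2.59, 21.7 and 20.7. Whether such neighbours are parts or copies of one gene was not tested, so the 93 may come from fewer genes.

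Membership depended on the scaling. Of the 93, 84 met the rule under upper-quartile scaling, 85 when the stages were scaled to the same sum and 76 under quantile normalization, and 76 met it under all 3. Unigene68301, the most abundant member, met it under none of these, and neither did unigene11368, unigene57547, unigene26358, unigene2890 and unigene82386, whose fall from W to G then exceeded 0.5, nor unigene74939, whose FPKM then stayed below 10. Quantile normalization moved the second step of unigene68301 from -0.43 to -1.19, and that of unigene79541, well inside the limit before, from -0.26 to -0.62. Of the 3 most abundant members, unigene12161 alone thus met the rule under that scaling. Without a pseudocount, 86 met the rule.

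**Figure D5:**
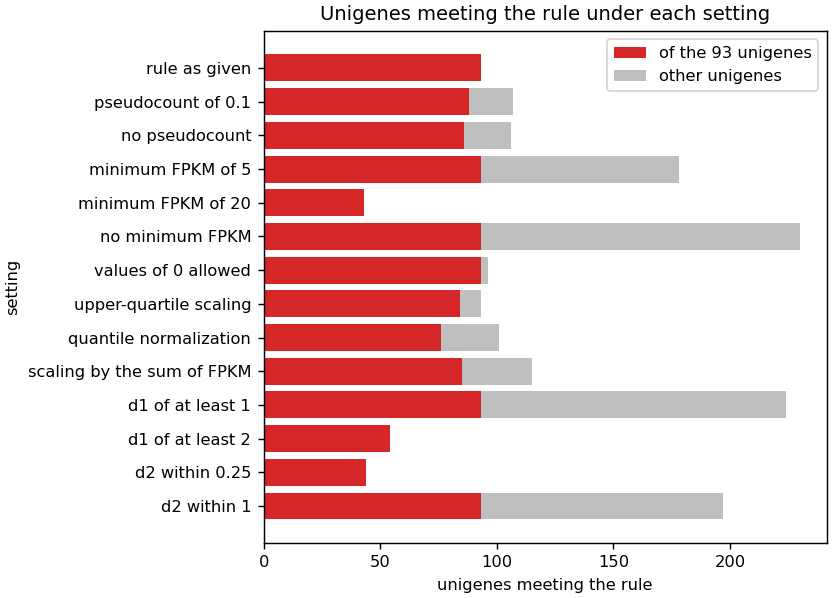
Number of unigenes that met the rule under each setting (horizontal bars from 0), with those among the 93 in red and others in grey. The scalings kept 76 to 85 of the 93, while a minimum FPKM of 5 gave 178 and a minimum of 20 left 43.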

How the data were processed

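RNA of 9 ‘Anji Baicha’ leaf libraries, 3 per stage by their labels, was sequenced by the authors, who filtered the reads, assembled unigenes with Trinity (release 20130225) and computed FPKM with Cufflinks (version 1.0.3 in the methods, 2.1.1 in the submitters' processing notes). The deposited FPKM values hold 1 value per unigene and stage. How libraries were combined, the aligner and the handling of shared reads are not given in the sources used here. The study reports the reads of each library, but the number of fragments behind each value is unknown.

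Differences were taken on log2(FPKM + 1), which understates changes of low values. A value of 0 can be a failed estimate. No test was possible. The members and lists were chosen with earlier results of these data known, and the 78 unigenes of the study's pathway tables were left out. Unigenes named are the 10 most abundant members, those with the largest first step, the largest, smallest and most level second steps, those next to each limit, and the nearest pathway unigenes. Any further name (such as CHLH, PORA, GGPS and the neighbours by number) was picked with its values known. The counting was run on simulated data, with clear rises planted in well expressed unigenes and little noise. That run checks the counting only and says nothing of calls near the limits or at low FPKM. Alternatives covered the pseudocount, the FPKM minimum, the limits, values of 0 and 3 scalings (upper quartile, taken as the 75th percentile, quantile and sum). Python 3.11.15, pandas 2.3.3, numpy 2.4.6, scipy 1.17.1 and matplotlib 3.10.9 were used.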

Additional observations from a re-analysis of the deposited data

How the results depend on the processing

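No paired analysis was possible because the files hold 1 pooled value per stage, and leaving out each replicate could not be run for the same reason. The 93 unigenes became 178 and 230 with a minimum FPKM of 5 and with none, 43 with a minimum of 20, 224 and 54 with a first step of at least 1 and 2, and 44 and 197 with a second step within 0.25 and 1. The mirror group of 105 became 251, 444, 51, 216, 61, 53 and 215 under the same changes in turn. The share of early risers that held, 21.7%, became 17.8% without a pseudocount (added after the data were seen), 26.2% and 27.8% with a minimum FPKM of 5 and with none, 17.3% with a minimum of 20, and 10.2% and 46.0% with a second step within 0.25 and 1. The group's share of all FPKM in W, 0.909%, became 2.23% with values of 0 allowed, through unigene21, 2.46% with a first step of at least 1, and 0.308% and 1.78% with a second step within 0.25 and 1. The median first step became 1.37 with a first step of at least 1. The single pathway unigene of this shape became 2 with a first step of at least 1 or a second step within 1, and 0 with a first step of at least 2 or a second step within 0.25. The other 61 of 90 alternative values stayed within 1.5 times the value given, or within the 95% binomial interval for the share. That interval counts unigenes as independent, which they are not. It served only as a cut-off for calling a value changed and measures no spread between plants or settings. Over the 6913 unigenes, scaling to the same sum moved the median first step by 0.12, and quantile normalization moved the median second step by -0.16.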

Other observations

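Another 3 unigenes would have met the rule but for a value of 0 listed in YG. Unigene21 was listed at an FPKM of 4589 in W and 3728 in G, far above every member. Unigene121477 was listed at 14.8 and 16.3, and unigene129538 at 13.7 and 14.1. No fold is given for them, since a listed 0 can be a failed estimate.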
